A study of Sus scrofa with 6 samples.

Results

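THBS2, POSTN, TNC, CHI3L1, DCN, BGN, PRELP and LOX are 8 of the 6765 genes that the platform annotation names on a porcine expression array, and between them they have 11 of the 23999 probe sets that were not array controls. Every probe set that carried 1 of these symbols alone was used. The genes were chosen by name with the signals of these arrays already known, so their differences between the cell lines describe the choice and were given no test. The group is usually called matricellular proteins and small leucine-rich proteoglycans. The name does not cover LOX, an enzyme, or CHI3L1, a secreted chitinase-like lectin, which were listed with them.

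The arrays measured total RNA of OBGF400, a pig cell line that its labels describe as neuroblasts from the olfactory bulb, and of PK15, a pig line labelled non-neuronal and of epithelial origin. Each line had 3 arrays, and RNA of 9 cultures per line had been pooled to give them, so replicates are pooled cultures of a single line rather than animals. The cells were untreated and both media held 10% bovine calf serum, but the base media differed and only the PK15 medium held amphotericin B. Line, medium and any batch of labelling cannot be told apart. The design used PK15 as a background for finding genes that OBGF400 expresses preferentially.

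Matricellular proteins are secreted into the extracellular matrix but, unlike collagens, do not build its scaffold. They bind collagen, growth factors and cell surface receptors, and are known from development, wound repair and fibrosis. In the brain, TNC marks germinal zones and the migratory path of neuroblasts towards the olfactory bulb. Small leucine-rich proteoglycans have a curved core of leucine-rich repeats, bind collagen fibrils and limit their width, and DCN and BGN also hold growth factors of the TGF-beta family. LOX oxidises lysines of collagen and elastin, from which the crosslinks of these proteins form.

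Signals are log2 values. The lowest value of the table, called the floor here, was 2.13 on every array and was held by 25.8% to 27.3% of the probe sets of an array, and "at the floor" means within 0.1 of it on each of the 3 arrays of that line. A difference against a level near the floor depends on where the floor was set. Each such difference is therefore also given with 32 added to the linear signals, which damps dim values. Differences are OBGF400 minus PK15, errors are SD over the 3 arrays of a line, and no order was drawn among signals of different genes.

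All 8 genes had far higher signals in OBGF400. Their differences ran from 5.66 for LOX to 12.14 for CHI3L1, with a median of 9.82, and from 4.09 to 9.82 with a median of 7.27 with 32 added. The median over all 6765 genes was -0.002. Each of the 8 was at least 8-fold higher in OBGF400, as were 4.61% of all genes, and had every OBGF400 array above every PK15 array, as did 26.8% of all genes. The choice of the genes fixed both counts, and nothing is read from them. In bulk RNA, fewer cells that express a gene and less of its RNA per cell cannot be told apart.

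**Figure D1:**
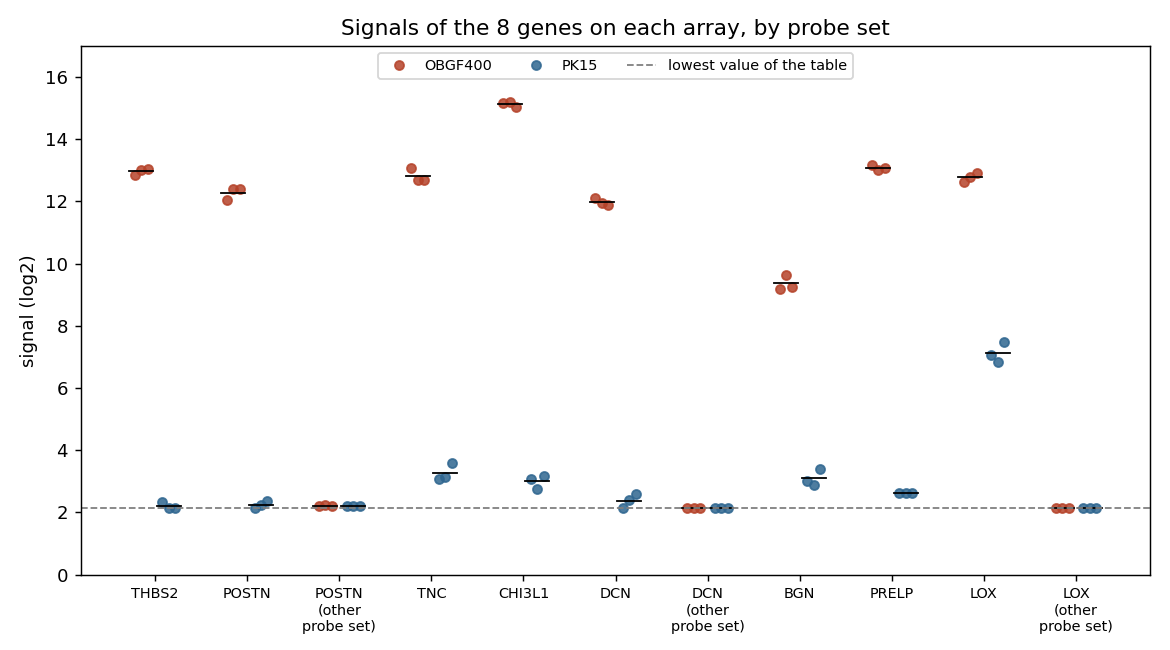
Signal (log2) of each probe set of the 8 genes on the 3 OBGF400 and 3 PK15 arrays; points are arrays, black lines are line means and the dashed line is the floor at 2.13. The probe sets that stand for the genes lie between 9.20 and 15.21 in OBGF400, only LOX lies above 4 in PK15, and the other probe sets of POSTN, DCN and LOX lie at or near the floor in both lines.

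THBS2, a thrombospondin that binds matrix metalloproteinases and limits the growth of vessels, was at 12.86, 13.01 and 13.03 on the OBGF400 arrays and at 2.34, 2.14 and 2.14 on the PK15 arrays. The OBGF400 arrays lay close together, and the lowest of them was 10.52 above the highest PK15 array. The means were 12.97 ± 0.09 and 2.21 ± 0.11 (SD, n = 3), a difference of 10.76, or 7.78 with 32 added. In PK15, 2 of 3 arrays were within 0.1 of the floor.

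POSTN, periostin, which binds integrins and helps collagen fibrils to be crosslinked, was at 12.05, 12.41 and 12.39 in OBGF400 and at 2.13, 2.25 and 2.36 in PK15. The lines did not overlap, and the means of 12.28 ± 0.21 and 2.24 ± 0.11 (SD, n = 3) differed by 10.04, or by 7.09 with 32 added. Its other, dimmer probe set gave 2.20 on 5 of 6 arrays and 2.24 on OBGF400 replicate 2. That probe set showed no signal of the gene in either line, so the statement on POSTN rests on 1 of its 2 probe sets.

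TNC, tenascin-C, a large glycoprotein of glial, tendon and wound matrix that loosens the attachment of cells, was at 13.08, 12.70 and 12.68 in OBGF400 and at 3.09, 3.13 and 3.60 in PK15. OBGF400 replicate 1 stood above the other 2 arrays of its line, and all 3 lay over 9 log2 units above PK15. The means of 12.82 ± 0.23 and 3.27 ± 0.28 (SD, n = 3) differed by 9.54, or by 7.44 with 32 added.

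CHI3L1 binds chitin without cutting it and is secreted by chondrocytes, macrophages, reactive astrocytes and mesenchymal cells. Its signals were 15.16, 15.21 and 15.05 in OBGF400, where the highest value of any probe set on an array was 15.97, against 3.09, 2.75 and 3.16 in PK15. The means of 15.14 ± 0.08 and 3.00 ± 0.22 (SD, n = 3) differed by 12.14, or by 9.82 with 32 added, which is 903-fold. The lines did not overlap, and the gap between the lowest OBGF400 and the highest PK15 array was 11.89. Of 5 measured macrophage and leukocyte markers, CD14 was called higher in OBGF400, AIF1 and SPI1 were called lower, and PTPRC and CD163 were at the floor in both lines. Calls are those of the limma fit described below, in which 23.9% of all genes were called higher in OBGF400 and 36.8% lower. CD14 was dim, at 5.92 ± 0.23 against 4.89 ± 0.36 (SD, n = 3), by 1 of its 2 probe sets. Its difference was 1.03, or 0.58 with 32 added, and its call was not followed under the control scalings. AIF1 was at 2.15 on each OBGF400 array against 10.72 ± 0.11 in PK15. The summed linear signal of the 5 was 72.6 to 91.5 in OBGF400 and 1694 to 1954 in PK15, and their part in the signal of CHI3L1 was not tested.

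The 3 small proteoglycans were bright in OBGF400 and dim in PK15. DCN, decorin, which binds collagen and several growth factors and receptors, was at 12.11, 11.94 and 11.89 in OBGF400 and at 2.13, 2.40 and 2.60 in PK15. The arrays of a line were close and the lines far apart, with means of 11.98 ± 0.11 and 2.38 ± 0.23 (SD, n = 3), a difference of 9.60, or 6.77 with 32 added. A second DCN probe set gave the floor value on all 6 arrays, so that DCN too rests on 1 of 2 probe sets.

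BGN, biglycan, the closest relative of DCN, had signals of 9.20, 9.64 and 9.25 in OBGF400 and of 3.02, 2.87 and 3.39 in PK15. OBGF400 replicate 2 was the highest, and all 3 arrays stood above PK15 by at least 5.81. The means were 9.36 ± 0.24 and 3.10 ± 0.27 (SD, n = 3), and the difference of 6.27 became 4.09, or 17-fold, with 32 added.

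PRELP, which lacks the long sugar chains of most of the family and ties basement membranes to the collagen below, was at 13.18, 13.01 and 13.07 in OBGF400. On each PK15 array it had the identical value of 2.63. Such repeats were common, with 1538 probe sets showing 1 identical value above the floor on all 3 PK15 arrays, and an SD of 0 measures no precision there. The OBGF400 mean was 13.09 ± 0.09 (SD, n = 3), and the difference was 10.45, or 7.83 with 32 added.

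LOX, lysyl oxidase, was the one gene of the 8 with a clear signal in PK15. It was at 12.64, 12.80 and 12.91 in OBGF400 and at 7.07, 6.83 and 7.49 in PK15, and the lines were separated by 5.15. The means of 12.78 ± 0.14 and 7.13 ± 0.33 (SD, n = 3) differed by 5.66. Because PK15 lay well above the floor, adding 32 changed that difference little, to 5.36, which is 41.2-fold. The second LOX probe set gave the floor value on all 6 arrays.

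The sizes depended on settings that the files cannot settle, while the direction held in each of them. The hybridization controls, which are added to the cocktail after labelling, were brighter on PK15 arrays, and the dap and thr poly-A controls, which are added to the RNA, were brighter on OBGF400 arrays. Scaling on the hybridization controls moved the median of all genes to 0.82 and gave differences of 6.48 to 12.96 for the 8 genes. Scaling on dap and thr moved the median of all genes to -0.86 and gave 4.80 to 11.29. Leaving out 1 array at a time gave 5.51 to 5.84 for LOX and 6.13 to 6.42 for BGN. When all probe sets of a gene were averaged, POSTN came to 5.03, DCN to 4.80 and LOX to 2.83, since their second probe sets sit at or near the floor.

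**Figure D2:**
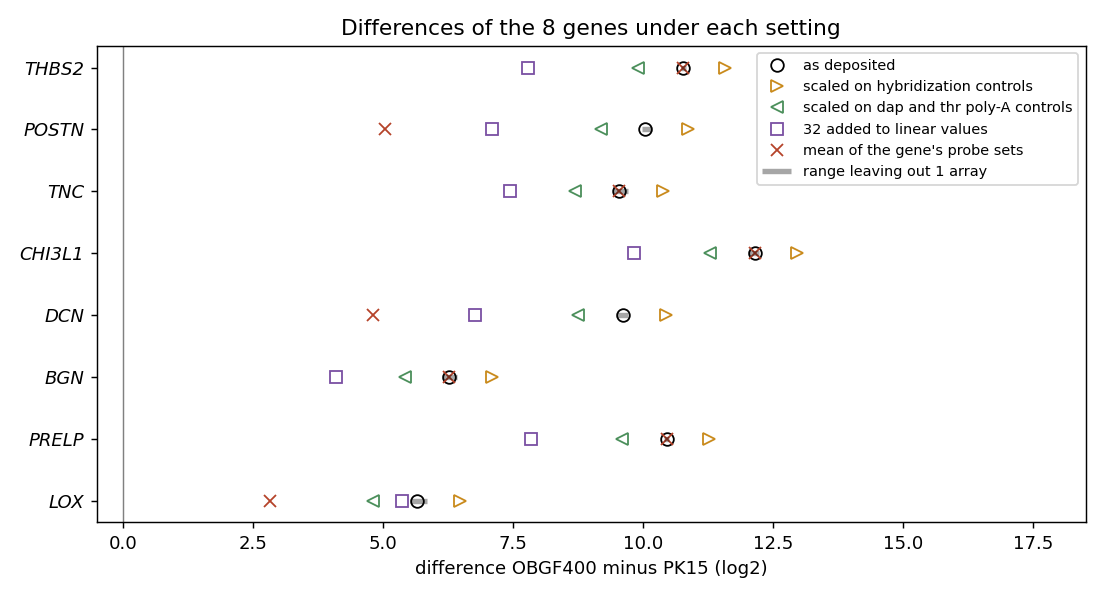
Difference OBGF400 minus PK15 (log2) of the 8 genes as deposited (circles), scaled on 2 kinds of control (triangles), with 32 added (squares) and averaged over the probe sets of each gene (crosses); grey bars are the range when 1 array is left out. Every symbol lies right of 0, and the lowest is the 2.83 of LOX as a mean of its probe sets.

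The spread between arrays of a line did not enter the choice of the genes. In OBGF400 the SD of all 8 was above the median SD of genes of like level, and that of 6, namely POSTN, TNC, CHI3L1, DCN, BGN and LOX, was above the upper quartile. For genes with a mean of 11 to 14, that median was 0.06 and that upper quartile 0.10. In PK15, 7 of 8 were above the upper quartile of genes of like level, and PRELP, with its repeated value, was not. For genes with a PK15 mean of 2 to 4 the median SD was 0 and the upper quartile 0.07, because repeated values are frequent there. A gene with unequal values near the floor readily exceeds both, so the PK15 count says little about spread. LOX, in the band of 4 to 8, was barely above its upper quartile (0.333 against 0.328). The genes did not deviate together in OBGF400. Replicate 1 was the lowest array for THBS2, POSTN, BGN and LOX and the highest for TNC, DCN and PRELP. In PK15, replicate 3 was the highest array for POSTN, TNC, CHI3L1, DCN, BGN and LOX. Of 882 genes with a PK15 mean under 4 and unequal values, 24.5% were highest on that array, against 5 of the 6 genes here that meet the same terms. No test was made of these counts.

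**Figure D3:**
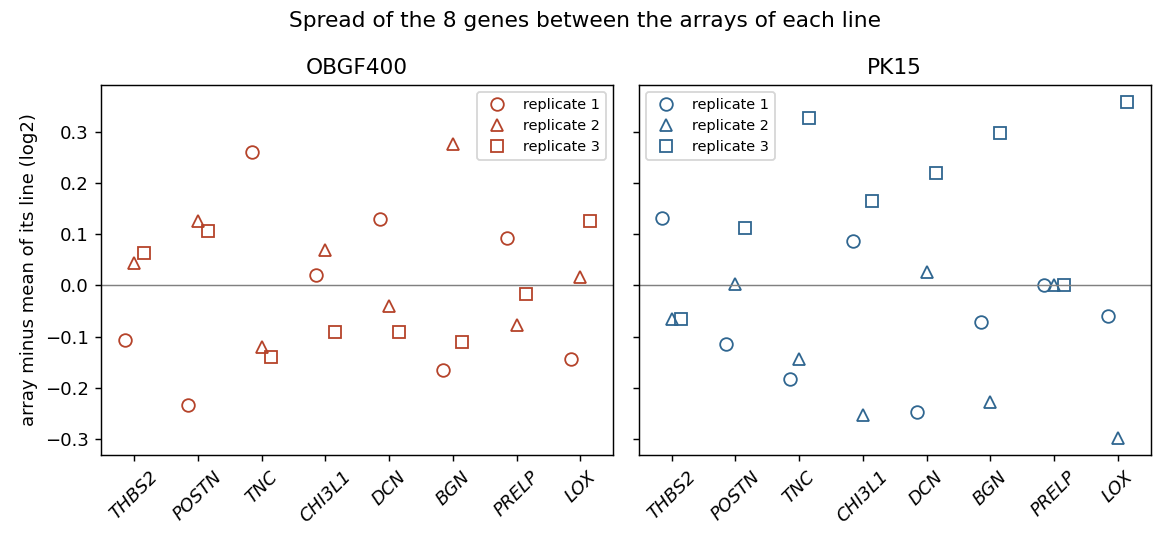
Deviation of each array from the mean of its line (log2) for the 8 genes, in OBGF400 (left) and PK15 (right); symbols are replicates. Replicates are mixed in OBGF400, where the deviations stay within 0.3, and replicate 3 is on top for 6 genes in PK15.

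The identity of the lines was checked on marker genes. Their counts are read beside the 23.9% of all genes called higher in OBGF400 and the 36.8% called lower in the limma fit below. A count near these shares says little about identity. All 6 epithelial markers, among them CDH1 (2.83 ± 0.10 against 12.45 ± 0.13, SD, n = 3) and the keratin KRT8, were lower in OBGF400. Of 8 measured fibroblast and mesenchymal markers, 6 were higher in OBGF400, including THY1 and PRRX1, S100A4 was lower and COL3A1 was not called. The summed linear signal of these markers overlapped between the lines, at 24830 to 28060 in OBGF400 and 23750 to 26100 in PK15. S100A4, at 12.62 ± 0.11 against 14.61 ± 0.07 (SD, n = 3), made up most of the PK15 sum. Of 5 measured smooth muscle and pericyte markers, the contractile genes ACTA2, CNN1 and TAGLN were higher in OBGF400, by 11.62, 10.68 and 5.31, or by 9.62, 7.79 and 5.24 with 32 added, while DES was not called and RGS5 was at the floor in both lines. Their summed linear signal was 68740 to 71150 in OBGF400 and 546 to 934 in PK15. CNN1 is also among the 3 genes of most similar pattern to THBS2. The fibroblast marker PDGFRB is among those of POSTN, and the neuron marker UCHL1 among those of POSTN and PRELP. This similarity reflects mostly the size of the difference between the lines, with which known the 8 genes were chosen. No cell type is read from it. Of 7 measured neuroblast and neuron markers, NCAM1, MAP2 and UCHL1 were higher in OBGF400, STMN1 was lower, and SNAP25, GAP43 and ELAVL4 were at the floor in both lines. The summed linear signal of these 7 was 7126 to 7714 in OBGF400 and 3445 to 3955 in PK15. UCHL1, at 12.34 ± 0.07 in OBGF400 and at the floor in PK15, made up most of the OBGF400 sum. STMN1, at 10.27 ± 0.27 against 11.85 ± 0.11 (SD, n = 3), made up most of the PK15 sum, so the sums set different genes against each other. Of 7 measured markers of astrocytes and ensheathing glia, NPY was called higher, GFAP lower and 5 were not called. NPY was at 6.22 ± 0.19 against 2.40 ± 0.09 (SD, n = 3), by 1 of its 2 probe sets, and GFAP at 2.64 ± 0.30 against 7.74 ± 0.27, by 1 of its 4. Their summed signal was 92.3 to 116.4 in OBGF400 and 199.9 to 280.1 in PK15. Of 4 endothelial markers CDH5 was called lower and the others were not called, and none of 3 chondrocyte and tendon markers was called. The neuroblast markers NES, DCX, TUBB3, SOX2 and PAX6 were not analysed here, since the annotation used names no probe set for them. What part cell type has in the differences of the 8 genes was not tested.

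Genes of related function that do not belong to the 8 were tested with limma across all genes, with Benjamini-Hochberg adjustment. A gene with an adjusted p under 0.05 is called. In this fit 23.9% of all genes were called higher in OBGF400 and 36.8% lower, and the counts below are read beside these shares. Only genes that the annotation names could be counted.

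Among the other small leucine-rich proteoglycans, LUM and ASPN were far higher in OBGF400. Of 4 measured genes, 3 were called higher and 0 lower. Their median difference was 4.34, or 2.84 with 32 added. LUM, lumican, a keratan sulfate proteoglycan of collagen fibrils, was at the floor in PK15 and at 12.06 ± 0.08 in OBGF400 (SD, n = 3). It differed by 9.93, or by 6.89 with 32 added (limma adjusted p = 1.06e-07). ASPN, asporin, which binds TGF-beta and collagen, differed by 8.36 (5.38 with 32 added). TSKU, tsukushi, was close to equal in both lines (10.14 ± 0.11 against 9.82 ± 0.05, SD, n = 3). Its call rested on 1 of 2 probe sets, and it turned to -0.54 under scaling on dap and thr. OPTC, opticin, an eye proteoglycan, gave 2.27 and 2.28 and was not called. Under that scaling 2 of the 4 were higher and 2 lower.

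The other matricellular glycoproteins were divided. Of 15 measured, 7 were called higher and 3 lower, and 5 did not pass. The median difference was 0, which is the value of 3 genes at the floor in both lines. Scaling on the hybridization controls gave 12 higher and 2 lower, and scaling on dap and thr gave 4 higher and 9 lower. These scalings shift genes at the floor too, so that COMP, at the floor in both lines, was called under each (0.82 and -0.85). SPOCK3, a testican, was higher in OBGF400, at 10.21 ± 0.10 against 2.55 ± 0.34 (SD, n = 3), which differ by 7.66, or by 5.01 with 32 added. EFEMP2, fibulin-4, which brings LOX to elastin, was higher by 5.40 (4.43 with 32 added) and CYR61, a secreted CCN protein that binds integrins, by 2.18. LGALS3, galectin-3, was lower, with a difference of -1.78 (13.15 ± 0.17 against 14.93 ± 0.07, SD, n = 3), as was THBS3 (-1.75, 2 of 3 probe sets). SPP1, osteopontin, was lower by a small margin (-0.57), which became 0.25 under hybridization control scaling.

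THBS1 and SPARC, picked out here after their values were seen, are relatives of the group that both lines expressed. THBS1, the sister of THBS2 and an activator of latent TGF-beta, was at 14.18 ± 0.19 and 13.11 ± 0.41 (SD, n = 3), a difference of 1.07 (limma adjusted p = 0.017) with all 5 probe sets called higher. The call was lost without OBGF400 replicate 1 (adjusted p = 0.059) or 3 (adjusted p = 0.0522), and under scaling on dap and thr (adjusted p = 0.331). SPARC, a collagen-binding glycoprotein, was at 15.14 ± 0.03 and 13.31 ± 0.12 (SD, n = 3), a difference of 1.83, with 1 of 2 probe sets called. COMP, a thrombospondin of cartilage, was at the floor in both lines. Whether THBS1 differed less than THBS2 was not tested, since THBS2 was chosen on its own difference.

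Genes that crosslink collagen or process its precursor were higher in OBGF400 almost throughout. Of 12 measured, 11 were called higher and 1 lower, with a median difference of 2.06, against 8 higher and 1 lower under scaling on dap and thr. BMP1, the procollagen C-proteinase that also activates LOX, was at 8.99 ± 0.09 and 5.32 ± 0.30 (SD, n = 3), a difference of 3.67 (2.91 with 32 added). PCOLCE2, an enhancer of that protease, was higher by 3.43 and LOXL1, a LOX relative needed for elastic fibres, by 3.33. LOXL4 was the lower gene (6.20 ± 0.30 against 7.21 ± 0.19, SD, n = 3), by 1 of its 3 probe sets, and was not called under hybridization control scaling (-0.19).

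Genes for glycosaminoglycan chains, large proteoglycans and hyaluronan were mixed. Of 19 measured, 9 were called higher and 3 lower, and 7 did not pass. Their median difference was 0.46, or 0.10 with 32 added. Scaling on the hybridization controls gave 17 higher and 1 lower, and scaling on dap and thr 6 higher and 9 lower. SRGN, the core protein of serglycin, was at 10.18 ± 0.11 against 2.44 ± 0.06 (SD, n = 3), a difference of 7.74 (4.99 with 32 added). UST, which sulfates the uronic acids of the chondroitin and dermatan chains that DCN and BGN carry, was higher by 5.40 (4.28 with 32 added), and PAPSS2, which makes the sulfate donor, by 4.95. HAS3, a hyaluronan synthase, was lower (2.96 ± 0.29 against 8.72 ± 0.25, SD, n = 3), with a difference of -5.76, or -3.51 with 32 added. SLC35B2 and PAPSS1, which carry or make the sulfate donor, were lower with differences of -0.55 and -0.21, which turned to 0.27 and 0.62 under hybridization control scaling. VCAN and ACAN, large proteoglycans of the same matrix, were at the floor in both lines, with 5 and 2 probe sets.

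Receptors for these proteins went both ways, with 9 of 22 called higher and 9 lower, while 4 did not pass. Among the lower, SDC1 (-0.38) and CACNA2D1 (-0.63) lost their calls with the replicate block and when some arrays were left out. SDC1 turned to 0.44 under hybridization control scaling. When all probe sets were fitted, 0 of the 4 of SDC1 were called lower and 1 was called higher, and the single probe set of CACNA2D1 was not called. The median difference was 0, which is the value of 3 genes at the floor in both lines. ITGA8, an integrin chain that binds TNC, was at the floor in PK15 and at 12.43 ± 0.08 in OBGF400 (SD, n = 3), which differ by 10.29, or by 7.25 with 32 added, and all 3 of its probe sets were called. PDGFRB, a growth factor receptor of pericytes and fibroblasts, was higher by 9.88 (7.65 with 32 added) by 1 of 2 probe sets, and NCAM1, a neural adhesion molecule that binds proteoglycans, by 6.20 (3.70 with 32 added). ITGA2, a chain of a collagen receptor, was lower (3.04 ± 0.20 against 7.53 ± 0.18, SD, n = 3), by 1 of its 2 probe sets. P2RX4, an ion channel opened by ATP (-3.75, or -2.65 with 32 added), and DDR1, a collagen-binding kinase (-1.63), were also lower. TLR2 and TLR4, through which soluble BGN signals, were at the floor in both lines, with 1 and 5 probe sets. Under scaling on hybridization controls 14 receptors were higher and 3 lower, and on dap and thr 7 were higher and 13 lower. TLR2 and TLR4 are among the 14 higher (0.82) and the 13 lower (-0.85), although they were at the floor in both lines.

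Of the glycoside hydrolase family to which CHI3L1 belongs, 3 other members were measured. CHID1, a chitinase-domain protein found in many tissues, was called higher (9.65 ± 0.03 against 8.54 ± 0.17, SD, n = 3), by 1.11, and was not called under scaling on dap and thr (0.26). CHIA, an acidic chitinase, and OVGP1, an oviduct glycoprotein, were at the floor in both lines.

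**Figure D4:**
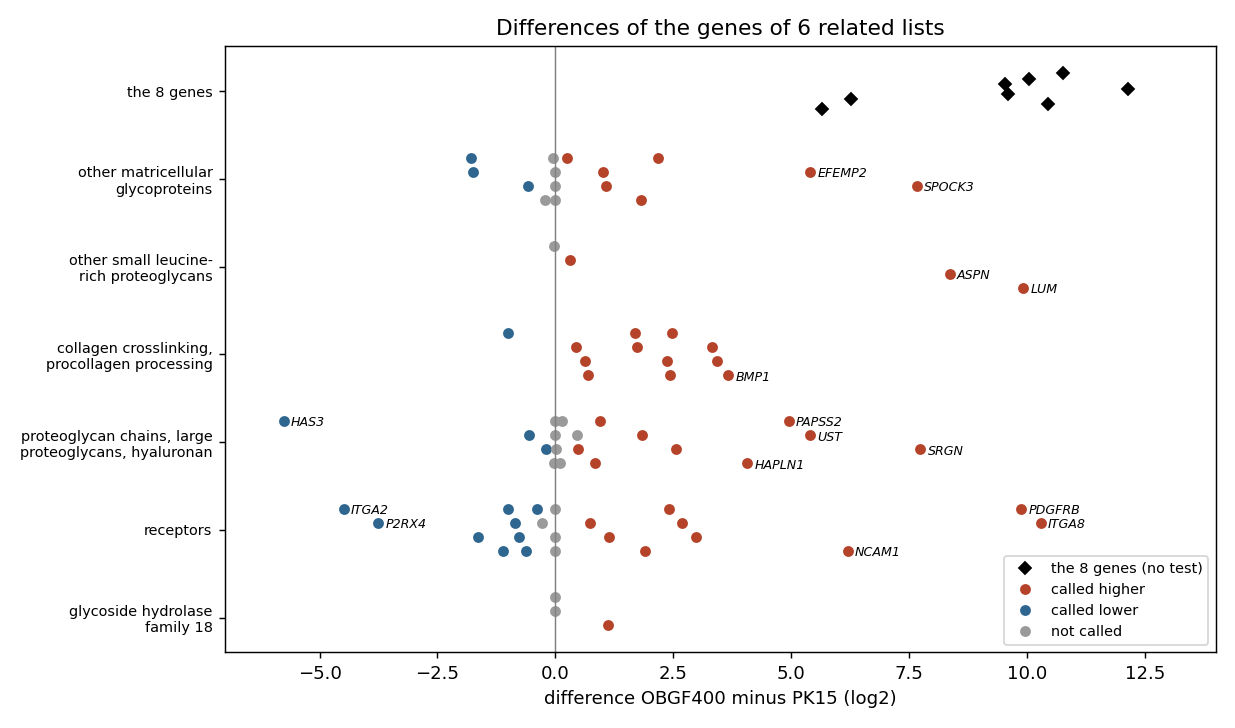
Difference OBGF400 minus PK15 (log2) of the 8 genes (black diamonds, no test) and of the measured genes of 6 related lists; red is called higher, blue called lower and grey not called (limma, adjusted p under 0.05). Genes beyond 3.5 in either direction are named. LUM and ASPN lie among the values of the 8 genes, the crosslinking genes lie right of 0 apart from LOXL4, and the receptors lie on both sides.

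The fibrils that these proteins coat were uneven. COL1A2, a chain of type I collagen, was at 12.82 ± 0.20 against 2.91 ± 0.26 (SD, n = 3), a difference of 9.91 (7.52 with 32 added). COL5A1, COL5A2 and COL6A3, chains of fibril-nucleating and microfibrillar collagens, were higher by 5.24, 7.77 and 8.58, or by 5.05, 5.29 and 5.77 with 32 added. COL5A1 was called by 3 of its 6 probe sets and COL5A2 by 1 of its 2. FBN1, fibrillin-1, was higher by 9.74 (7.57 with 32 added). COL3A1, whose fibrils DCN and LUM also bind, was close to the floor in both lines by its single probe set (2.65 ± 0.13 against 2.58, a value repeated on all 3 PK15 arrays) and was not called. FN1, fibronectin, was at 14.25 ± 0.01 and 14.15 ± 0.07 (SD, n = 3), a difference of 0.11, and was not called (limma adjusted p = 0.0595). It was called without PK15 replicate 3 (0.15, adjusted p = 0.00325). As a mean of its 4 probe sets it was higher by 1.17 and called (adjusted p = 0.00622), with 1 of the 4 called higher by itself. COL1A1 and ELN were not analysed here.

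The TGF-beta ligands, which induce several of the 8 genes in fibroblasts and are bound by DCN and BGN, did not move together. TGFB2 gave a repeated 2.43 in PK15 and 8.51 ± 0.16 in OBGF400 (SD, n = 3), which differ by 6.08, or by 3.41 with 32 added, by 3 of 4 probe sets. TGFB3 was higher by 3.53 (1.45 with 32 added) by 1 of 2 probe sets. TGFB1 was lower (5.48 ± 0.06 against 9.09 ± 0.18, SD, n = 3), by both of its probe sets.

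For each of the 8 genes, the 3 genes with the most similar pattern over the 6 arrays were found by the root mean square distance between log2 values centred on each gene's own mean. The closest to THBS2 was C1S, a complement protease, at a distance of 0.10, followed by CNN1 at 0.19. The closest to POSTN was PDGFRB, at 0.11, followed by LUM at 0.16 and UCHL1 at 0.18. PRELP was closest to ITGA8, at 0.08, followed by UCHL1 at 0.13. FBN1 was closest to both TNC (0.21) and DCN (0.17), followed in each case by TMEM26 and HEY2. CHI3L1 was closest to CXCL14, a chemokine (0.25), BGN to CRABP2, a retinoic acid carrier (0.16), and LOX to LONRF3 (0.15). With 6 arrays in 2 lines, this distance reflects mostly the size of the difference between the lines and is given as a description.

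Gene order was taken from the RefSeq annotation of the pig assembly Sscrofa11.1, and positions are left out because the build of the probes is not stated in what was used here. This look at neighbours was decided after the signals had been seen. Of the 48 protein-coding genes within 3 places of the 8, 13 were measured, of which 6 were called higher and 3 lower. DCN lies beside LUM in a cluster with KERA and EPYC, 2 further small proteoglycans that were not analysed here. BTG1, the growth-arrest gene on the other side of DCN, was higher by 1.47. PRELP lies between FMOD, not analysed here, and OPTC, which was not called and lay within 0.2 of the floor in both lines, and BTG2 beyond FMOD was higher by 4.14, or by 3.39 with 32 added. The neighbours DUSP9 of BGN (-3.03, or -1.17 with 32 added) and SNX24 of LOX (-1.99, or -1.57) were lower, as was UFM1 near POSTN (-0.28). SRFBP1 of LOX (2.11, or 1.36 with 32 added) and PRRC2C (1.98) and ADORA1 (0.67, or 0.40) of CHI3L1 were higher. PAPPA beside TNC, MYOC near CHI3L1 and TREX2 near BGN were not called.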

How the data were processed

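Porcine expression arrays of 3 RNA pools per line were hybridized after biotin labelling of 8 µg of total RNA, per the labels' protocols. Signals are log2 values as deposited, with each probe set holding 1 value on each array. Per the submitters' processing notes the package affy was used. No source used here gives its version, the background correction, the summarisation or the normalization. Array means ranged from 5.41 to 5.42, and no detection calls were used. The number of arrays limits the precision.

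Of 24123 probe sets, 124 controls were left out. Symbols came from the platform annotation, in which 10069 probe sets had 1 symbol, 198 several and 13732 none. Each gene was represented by whichever of its probe sets had the highest mean signal. OBGF400 and PK15 were contrasted in limma 3.58.1 (lmFit and eBayes, two-sided) in R 4.3.3 over 6765 genes, with Benjamini-Hochberg adjustment, and tables were made in Python 3.11.15. The fit was tested on simulated data. An exact permutation test of 3 against 3 can give no p under 0.1. p-values weigh a difference against the spread between pools. Where a line lies at the floor, as PK15 does for LUM and ITGA8, its repeated or near-equal values do not measure that spread.

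The 8 genes and the lists were chosen with earlier results of these data known. Named in each list were the called genes of largest difference, at most 3 in either direction, a fixed set of collagens and TGF-beta ligands, and the 3 nearest patterns of each gene. Markers, THBS1, SPARC, COMP, VCAN, ACAN, TLR2, TLR4, SDC1, CACNA2D1, OPTC, CHIA, OVGP1 and the neighbours were named beyond that after their values were seen. Alternatives were quantile normalization, scaling on 27 hybridization or 18 dap and thr control probe sets, a filter at the 25th percentile of mean signal, 32 added to linear values, the mean of probe sets, a trended and robust variance, the replicate number as a block, and leaving out each array. Replicate numbers did not pair the lines. Protein and promoter sequences were not used here.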

Additional observations from a re-analysis of the deposited data

How the results depend on the processing

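The median difference of the 8 genes stayed between 9.73 and 9.90 when an array was left out, and was 9.82 under quantile normalization. It moved to 10.64 under hybridization control scaling, 8.97 under poly-A control scaling, 7.27 with 32 added and 7.91 with the mean of probe sets, and each of the 8 kept its direction in all of these. The filter, the variance model and the replicate block were not applied to the 8 genes, which have no test.

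Counts of called genes moved by over 1.5 times under the control scalings alone. Hybridization control scaling gave 12 matricellular glycoproteins higher, 0 crosslinking and processing genes lower, 17 chain, large proteoglycan and hyaluronan genes higher and 1 lower, 14 receptors higher and 3 lower, 3 family 18 hydrolases higher, and over all genes 4487 higher and 1259 lower. Scaling on the poly-A controls gave 4 matricellular glycoproteins higher and 9 lower, 2 small proteoglycans lower, 9 chain, large proteoglycan and hyaluronan genes lower, 0 family 18 hydrolases higher and 2 lower, and 763 of all genes higher and 5219 lower. Of all called genes, 39.4% were higher as deposited, against 78.1% and 12.7% under these scalings, which shift every gene of an array alike, genes at the floor included. Between 1471 and 1575 of all genes were higher and between 2264 and 2441 lower when an array was left out.

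Small differences turned with the setting. Hybridization control scaling gave 0.81 for OPTC, 0.62 for PAPSS1, 0.27 for SLC35B2, 0.25 for SPP1 and 0.54 for UFM1. It also gave 0.44 for SDC1 and 0.20 for CACNA2D1. The mean of probe sets gave 0.36 for PAPSS1 and 0.16 for SDC1. Poly-A control scaling gave -0.19 for ADORA1, -0.78 for COL3A1, -0.75 for FN1, -0.75 for PAPPA, -0.85 for PTPRC, -0.61 for TREX2, -0.54 for TSKU and -0.84 for VCAN. SLC35B2 was not called without OBGF400 replicate 1 (-0.50, adjusted p = 0.0776) or 3 (-0.48) or PK15 replicate 2 (-0.50) or 3 (-0.55). TREX2 was called without OBGF400 replicate 2 (0.15).

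The replicate numbers are shared by the lines, but same-numbered arrays did not deviate together over genes (correlations of 0.03, -0.01 and 0.01). With the replicate block 1478 genes were higher and 2304 lower. Of the named genes whose calls were followed, only UFM1 (limma adjusted p = 0.0689), SDC1 (0.121) and CACNA2D1 (0.11) lost theirs. The markers CD14, SPI1, NPY, CDH5 and TAGLN were not followed under the alternative settings.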
